A study of Mus musculus with 7 samples.

Results

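The serotonin receptor genes are described here in mouse hippocampus, a brain region that serves memory. The members are 10 genes taken by name, Htr1a, Htr1b, Htr2a, Htr2c, Htr3a, Htr4, Htr5a, Htr5b, Htr6 and Htr7, out of 27583 genes in the expression table, and all 10 were found. RNA came from 7 hippocampus samples of male C57BL/6 mice (C57BL6/J in the sample titles), all labelled wild type, with no age given. The series was designed to set hippocampus after spinal cord injury against healthy control tissue. The labels of the 7 samples do not say which animals were injured, so no such comparison was made, and the libraries stand in 1 group as replicates 1 to 7. Nothing states that each library is a separate animal, so the p-values below measure the spread between these samples only, which may be technical.

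Serotonin reaches the hippocampus along axons from the raphe nuclei of the brainstem, and what a cell makes of it depends on the receptors it carries. Htr1a, Htr1b and Htr5a encode receptors that couple to inhibitory Gi/o proteins, which lower cyclic AMP and can open potassium channels. Htr5b was grouped with them here, as its coupling is less well established. Htr2a and Htr2c couple to Gq/11 and phospholipase C, Htr4, Htr6 and Htr7 couple to Gs and raise cyclic AMP, and Htr3a encodes a subunit of a cation channel. Several of these genes are also strongly expressed in other tissue near the hippocampus. Examples are Htr1b in the projection neurons of the striatum, Htr2c in the epithelium of the choroid plexus and Htr7 in the thalamus.

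Promoters are shown for 4 genes that differed most between libraries or that nearby tissues express. RefSeq's promoter table matched 7 of the 10 members. Each sequence runs 5′ to 3′ over 300 bases, from 250 before to 50 after the annotated start, in RefSeq's GRCm38.p6, the same build as mm10. Capitals mark any match, on either strand, to the TATA box (TATAAA), the CCAAT box, the GC box (GGGCGG), the E-box (CACGTG) or the cyclic AMP response half-site (TGACG).
Htr1b, chr9:81633783-81634082, minus strand: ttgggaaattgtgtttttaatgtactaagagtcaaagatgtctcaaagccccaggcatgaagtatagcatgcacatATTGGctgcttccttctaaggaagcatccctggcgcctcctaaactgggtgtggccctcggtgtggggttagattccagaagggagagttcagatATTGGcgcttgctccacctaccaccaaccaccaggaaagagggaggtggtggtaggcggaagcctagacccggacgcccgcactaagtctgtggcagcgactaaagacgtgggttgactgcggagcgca
Htr1a, chr13:105443443-105443742, plus strand: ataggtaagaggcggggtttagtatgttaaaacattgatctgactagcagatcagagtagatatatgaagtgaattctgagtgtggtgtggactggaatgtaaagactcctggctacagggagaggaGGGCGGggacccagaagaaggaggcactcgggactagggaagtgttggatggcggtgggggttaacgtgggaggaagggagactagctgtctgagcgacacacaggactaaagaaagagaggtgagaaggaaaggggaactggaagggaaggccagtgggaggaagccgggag
Htr2c, chrX:146962263-146962562, plus strand: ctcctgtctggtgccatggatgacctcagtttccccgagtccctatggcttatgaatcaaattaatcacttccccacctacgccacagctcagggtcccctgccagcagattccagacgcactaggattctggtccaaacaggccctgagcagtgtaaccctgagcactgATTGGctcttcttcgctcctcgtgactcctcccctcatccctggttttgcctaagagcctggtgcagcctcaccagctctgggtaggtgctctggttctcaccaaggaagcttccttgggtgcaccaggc
Htr7, chr19:36057311-36057610, minus strand: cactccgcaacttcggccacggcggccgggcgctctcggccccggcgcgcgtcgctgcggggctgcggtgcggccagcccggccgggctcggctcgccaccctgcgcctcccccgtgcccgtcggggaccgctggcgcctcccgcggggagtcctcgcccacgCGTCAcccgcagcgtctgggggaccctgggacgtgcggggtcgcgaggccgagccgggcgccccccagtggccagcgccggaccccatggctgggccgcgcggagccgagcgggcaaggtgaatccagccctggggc
Htr1b held 2 CCAAT matches and Htr2c held 1, against 37.4% of 32851 promoters in the table that held at least 1. Htr1a held 1 GGGCGG (35.7% of promoters) and Htr7 held 1 TGACG (20.8%). None of the 4 sequences held the TATA box (13.6% of promoters) or the E-box (7.15%), which says only that these letters are not in these windows. Htr7 had a G and C content of 81.0%, at percentile 99.3 of all promoters, while Htr1a (52.3%), Htr1b (53.3%) and Htr2c (56.3%) lay near the median of 52.7%.

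Depth was even between libraries. It was recovered from the steps in the values at an estimated 37324421 to 38448104 reads, and 12007 to 12185 genes reached 1 FPKM. FPKM scales the fragments of a gene by its length and the library size, so it can be compared between genes as far as their lengths are right. Replicate 5 stood apart: markers of striatal projection neurons summed to 2130 FPKM there and to 98.1 to 120 elsewhere, and 16 of 16 were highest in it. Markers of CA1 pyramidal cells summed to 112 there and to 133 to 157 elsewhere, with 5 of 8 lowest and 1 of 8 highest in it. Dentate granule cell markers summed to 133 there and to 132 to 161 elsewhere, with 7 of 10 lowest and 2 of 10 highest in it. Markers of CA2 and CA3 summed to 1362 there, of which Pcp4 gave 1118, and to 477 to 749 elsewhere. Of these, 7 of 10 were lowest and 1 of 10 was highest in it. Neocortex markers summed to 77.5 there and to 50.2 to 61.7 elsewhere, with 4 of 10 highest and 3 of 10 lowest in it. Choroid plexus markers (16 of 16) and thalamus markers (12 of 12) had their highest value in replicate 3 or 7. Hippocampal markers were present throughout, among them Wfs1 (25.9 to 37.8 FPKM) and Mpped1 (21.2 to 38.9) of CA1 and Calb1 (49.9 to 78.4) and C1ql2 (17.2 to 48.2) of the dentate gyrus. In replicate 5, Wfs1 and Calb1 were at their highest and Mpped1 and C1ql2 at their lowest. In tissue RNA of this kind, fewer cells of a type and less RNA per cell cannot be told apart.

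All 10 receptors were detected in each library, and Htr1a, Htr2c and Htr3a led by median FPKM. The medians were 7.72 for Htr1a, 6.26 for Htr2c and 5.18 for Htr3a. Htr2a followed at 3.51, Htr1b at 2.16, Htr5a at 2.15, Htr7 at 1.84, Htr5b at 1.64, Htr6 at 1.46 and Htr4 at 1.42. The ranges of neighbours overlapped in 9 of 9 pairs, so no step in this order was larger than the spread between libraries. Htr2c exceeded Htr3a, Htr3a exceeded Htr2a and Htr2a exceeded Htr1b in 6 of 7 libraries each. The other steps were less regular: Htr1a was above Htr2c in 4 of 7 libraries, and Htr6, although placed above Htr4 by its median, was the higher one in 2 of 7. Htr1a ranked first in replicates 1 to 4, and Htr2c ranked first in replicates 5, 6 and 7.

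**Figure D1:**
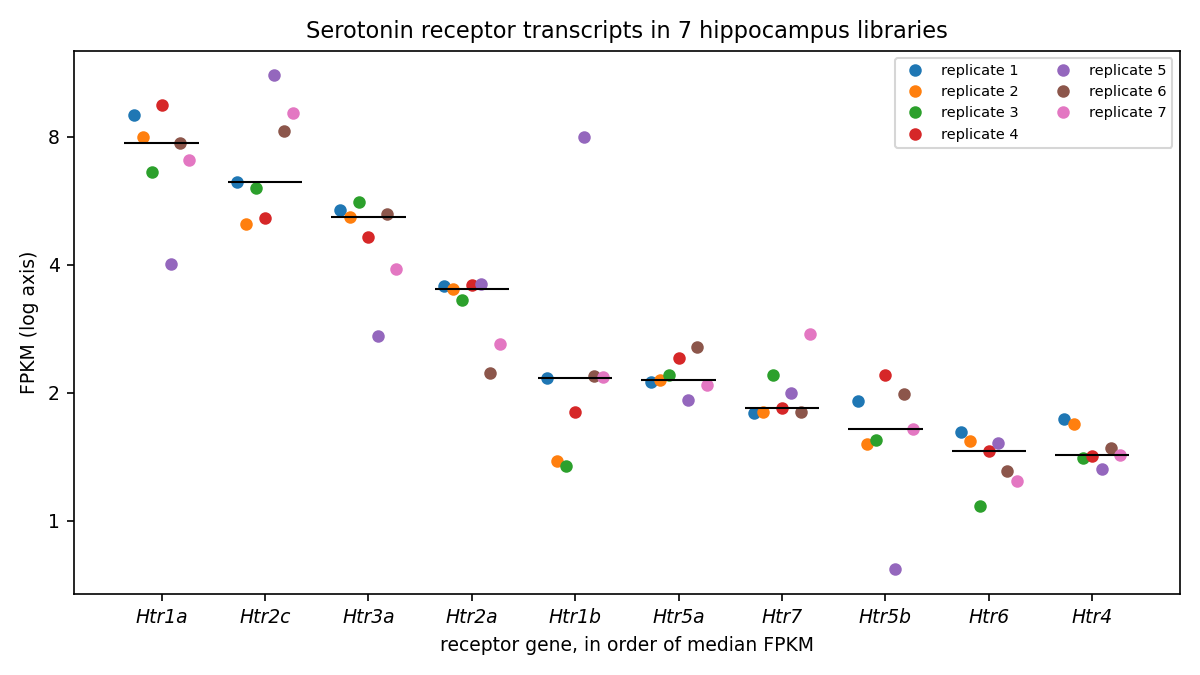
FPKM of each receptor gene (log axis) in the 7 libraries, with points for libraries and a bar for the median. Htr1a, Htr2c and Htr3a have the highest medians, and the purple points of replicate 5 lie far above the rest for Htr1b (8.02) and below the rest for Htr1a (4.01), Htr3a (2.72) and Htr5b (0.77).

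The order rested on the gene lengths in the deposited values. Because values were whole multiples of 1 read, reads could be recovered. Lengths followed from a depth searched for around that implied by GENCODE exon lengths. The length came to 15866 bases for Htr4, against 4908 bases of exon in GENCODE M21, a ratio of 3.23. For Htr5b it was 4345 against 1935 bases and for Htr6 3743 against 2341, whereas for Htr2a it was 2937 against 5606 and for Htr2c 4750 against 9328. Htr1a, Htr1b, Htr3a and Htr5a lay within 1.08 times of GENCODE, and Htr7 within 1.17 times.

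Htr1a stayed first however length was treated, and most others changed place. With GENCODE exon lengths, a choice made after seeing the data, the median of Htr4 became 4.60 FPKM and its place the third instead of the tenth. Htr5b became the fourth at 3.69, Htr2c the fifth at 3.19 and Htr2a the tenth at 1.84, while Htr3a became the second at 5.31. By reads with no length the leading genes were Htr1a (median 1342 reads), Htr2c (1128) and Htr4 (868), and Htr6 (210) was the last. Which length fits the transcripts in hippocampus was not tested. Ratios of FPKM between libraries within 1 gene do not depend on its length. Measures on FPKM + 1 do, since the added 1 weighs more at lower FPKM.

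**Figure D2:**
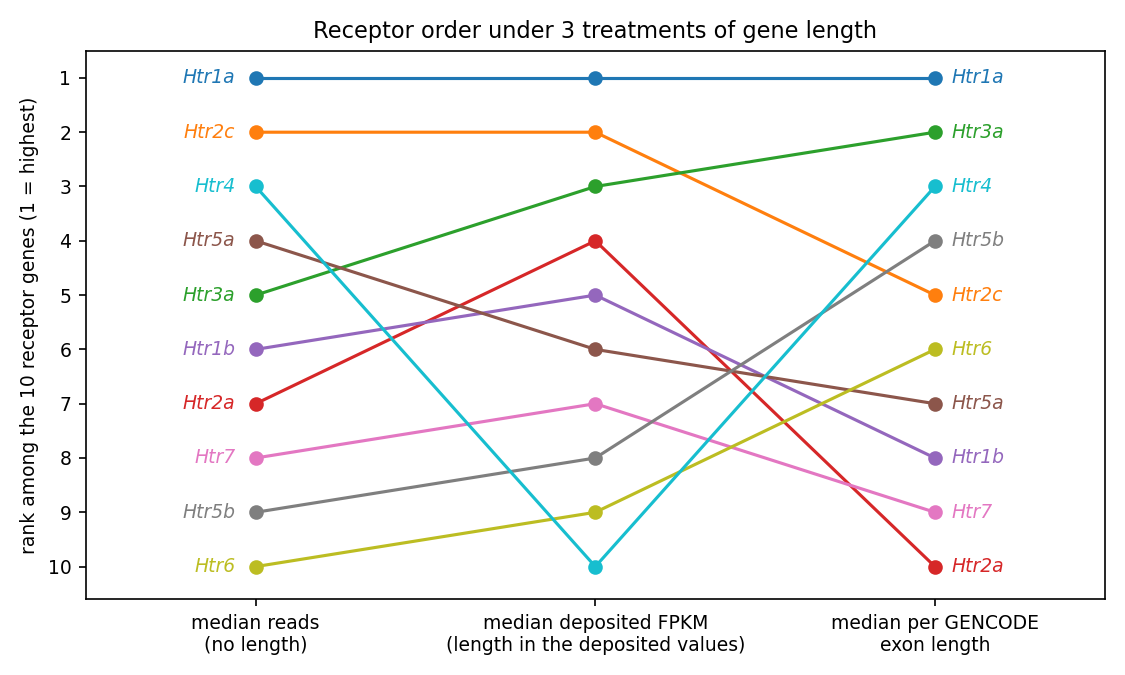
Rank of each receptor gene (1 is the highest) by median reads, by median deposited FPKM and by the same reads per GENCODE M21 exon length. Htr1a keeps rank 1, while Htr4 moves between ranks 3, 10 and 3 and Htr2a between ranks 7, 4 and 10.

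Taken by signalling class, Gi/o-coupled receptors had the largest share of receptor FPKM in 6 of 7 libraries. The 10 genes summed to 31.4 to 37.1 FPKM per library. The 4 Gi/o genes gave 37.3% to 46.7% of that sum, the 2 Gq/11 genes 25.7% to 39.9%, the 3 Gs genes 13.1% to 15.9% and Htr3a 7.34% to 17.9%. The Gs share varied least. Replicate 5 had the highest Gq/11 share (39.9%) and the lowest Htr3a share (7.34%), and there the Gq/11 share was level with the Gi/o share of 39.7%. These shares also rest on the lengths in the deposited values.

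**Figure D3:**
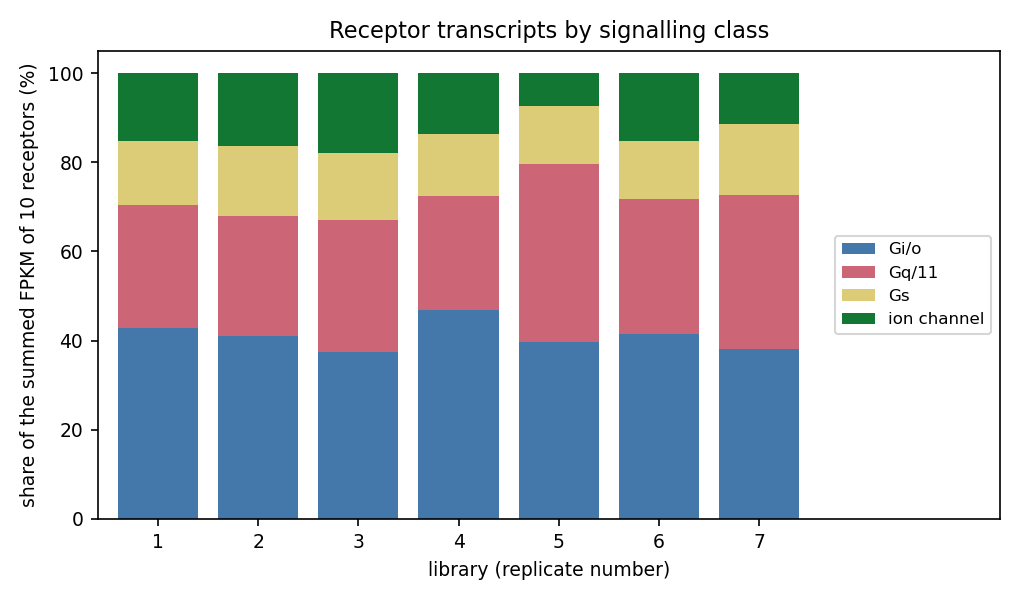
Share of the summed FPKM of the 10 receptor genes, in percent, by coupling class and library. Replicate 5 shows the widest Gq/11 band (39.9%) and the narrowest ion channel band (7.34%).

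The median SD of the receptors between libraries was above that of genes of their level, although Htr4 (0.09), Htr5a (0.09) and Htr6 (0.12) lay below it. The receptors' median SD on log2(FPKM + 1) was 0.24, against 0.12 over the 16166 genes whose median reached 0.1 FPKM and 0.13 over the 6709 genes with a median of 1 to 10. Without replicate 5 these were 0.17, 0.10 and 0.11. Among listed signalling genes, the median SD was 0.22 for 8 adenylyl cyclases, 0.21 for 15 effectors and 0.13 for 9 G protein subunits. The variance of reads over their mean, which counting alone would hold near 1, lay between 3.67 for Htr6 and 369 for Htr1b. Without replicate 5 it still ran from 3.51 for Htr5a to 77.5 for Htr2c.

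Replicate 5 was the highest or the lowest library for more receptors than any other. It was the highest for 3 of 10 receptors (Htr1b, Htr2a and Htr2c), beside 21.0% of all genes. It was the lowest for 5 of 10 (Htr1a, Htr3a, Htr4, Htr5a and Htr5b), beside 24.2% of all genes. Some steps were small: replicate 5 was 1.01 times the next library for Htr2a, 0.94 times for Htr4 and 0.92 times for Htr5a. On FPKM + 1, a receptor lay at least 1.5-fold beyond each of the other 6 libraries 2 times, both in replicate 5. Htr1b was higher there, as were 1.81% of genes, and Htr1a was lower, as were 0.643% of genes. None did in the other libraries, where 0.0186% and 0.0309% of genes (replicate 1, higher and lower), 0.0619% and 0.0124% (replicate 2), 0.0124% and 0.00619% (replicate 3), 0.0124% and 0.0% (replicate 4), 0.0124% and 0.0124% (replicate 6) and 0.0495% and 0.00619% (replicate 7) did. With 1 library on one side there is no test. Without replicate 5, an alternative added after seeing the data, the count was 0, and the share of all genes is not given.

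**Figure D4:**
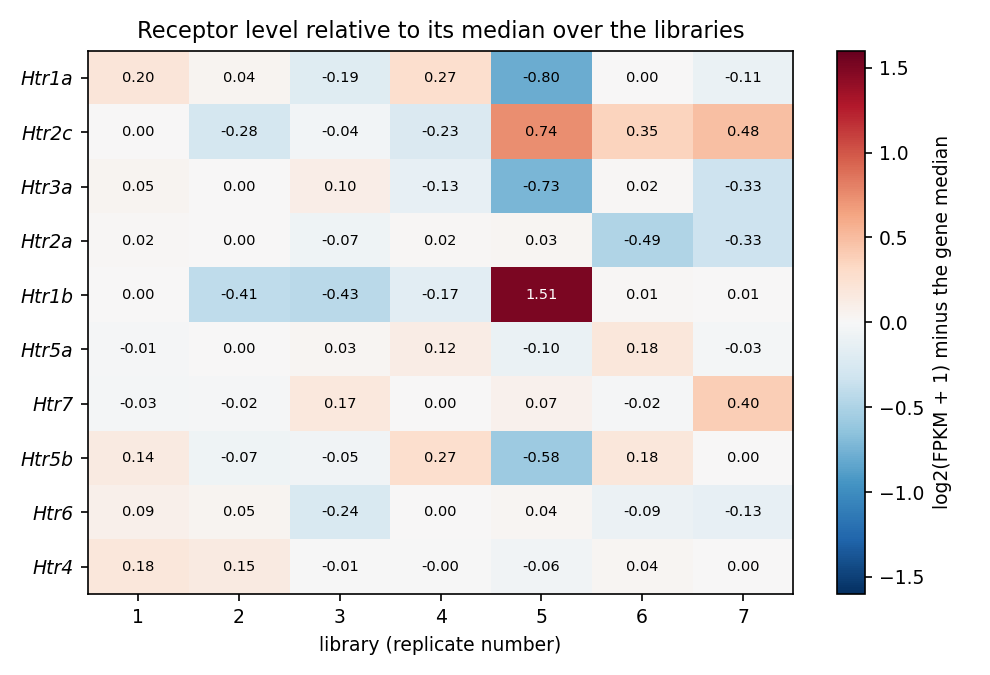
Level of each receptor in each library as log2(FPKM + 1) minus the median of the gene over the 7 libraries. Htr1b in replicate 5 stands 1.51 above its median, Htr1a there 0.80 below it, and Htr2a is low in replicates 6 and 7 only.

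Among the Gi/o receptors, Htr1b varied most. Positions are on mm10, from GENCODE M21. The gene encodes a receptor of axon terminals, where it curbs transmitter release, and lies at chr9:81628291-81633828 on the minus strand. It had 2.16, 1.38, 1.34, 1.81, 8.02, 2.20 and 2.18 FPKM in replicates 1 to 7, from 390, 245, 244, 330, 1437, 395 and 394 reads. Replicate 5 was 3.65 times the next highest library and 4.04 times the median of the other 6, whose values spanned only 1.34 to 2.20. Striatal markers were 6.07 in replicate 5 and 1.97 to 2.11 elsewhere, as mean log2(FPKM + 1), and their part in the Htr1b value was not tested. The 3 genes with the most similar profile, by root mean square difference of log2(FPKM + 1) from the gene median over 7 libraries, were Chrm4 (0.15), which encodes a muscarinic receptor, Rcn1 (0.16) and D430036J16Rik (0.16). Chrm4 had 16.7 FPKM in replicate 5 and 3.71 to 5.27 elsewhere.

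Htr1a, the inhibitory receptor of pyramidal and granule cell bodies and dendrites, was low in replicate 5. Located at chr13:105443639-105448122 on the plus strand, it had 9.002, 7.99, 6.63, 9.49, 4.01, 7.72 and 7.07 FPKM, from 695 to 1676 reads. Replicate 5 was 0.51 times the median of the other 6 libraries and did not overlap them. CA1 markers were 3.36 there and 3.75 to 3.94 elsewhere and dentate markers 2.89 and 3.14 to 3.40, as mean log2(FPKM + 1), and their part was not tested. The most similar profiles were those of Ctxnd1, Kcnj6 and Sh3rf1, each with a root mean square difference of 0.07. Kcnj6, a potassium channel subunit that Gi/o proteins open, had 3.64 FPKM in replicate 5 and 5.67 to 8.48 elsewhere.

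Htr5b, like Htr1a, was lowest in replicate 5, and Htr5a stayed within a narrow band. Htr5b, at chr1:121509842-121528465 on the minus strand, is functional in rodents and disrupted in humans. It had 1.92, 1.52, 1.55, 2.20, 0.77, 1.99 and 1.64 FPKM, from 126 to 367 reads, with 8.91% counting error at the lowest. Replicate 5 was 0.51 times the next lowest library, which passes 1.5-fold on FPKM itself but not on FPKM + 1. On log2(FPKM + 1) the closest profile was that of Mpped1, a CA1 marker, with a difference of 0.04. Homer2 (0.07), a postsynaptic scaffold gene, and Nr3c2 (0.08), the mineralocorticoid receptor gene, followed. Mpped1 had 21.2 FPKM in replicate 5 and 31.5 to 38.9 elsewhere, a smaller fall on FPKM itself than that of Htr5b. Of 8 CA1 markers, 5 were lowest and 1, Wfs1, was highest in replicate 5. The part of CA1 and dentate markers in the Htr5b value was not tested. Htr5a, at chr5:27842149-27855088, ranged from 1.93 in replicate 5 to 2.56 in replicate 6, a 1.33-fold range.

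Of the Gq/11 receptors, Htr2c split the libraries more evenly. The gene, which encodes a receptor known for RNA editing of its coding sequence and for its abundance in choroid plexus, lies at chrX:146962513-147197277. It had 6.26, 4.98, 6.06, 5.17, 11.2, 8.28 and 9.13 FPKM, from 883 to 2000 reads. Replicates 5, 6 and 7 were high and replicates 1 to 4 low, with 6.26 FPKM as the highest of the low and 8.28 as the lowest of the high. Ttr of the choroid plexus had 18.0, 63.7, 822, 22.2, 60.2, 238 and 1073 FPKM. Replicates 6 and 7 were high in both genes, replicate 3 in Ttr and replicate 5 in Htr2c. Replicate 5, the highest for Htr2c, was also the one high in striatal markers, and their part was not tested. The most similar profiles belonged to Tmem125 (0.06), Gjb1 (0.08), a gap junction gene of myelinating cells, and Ppp1r14a (0.11). Tmem125 had 2.68, 2.01, 2.54, 2.15, 4.77, 3.69 and 3.74 FPKM.

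Htr2a was low in a different pair of libraries. This receptor of cortical and hippocampal neurons, at chr14:74640840-74709494, had 3.56, 3.51, 3.30, 3.58, 3.60, 2.22 and 2.60 FPKM. Replicates 6 and 7, with 247 and 291 reads, lay below the other 5, which had 370 to 404 reads and stayed within 3.30 to 3.60 FPKM. Replicate 5, which lay beyond the other libraries for Htr1a and Htr1b, exceeded the next library by 1.01-fold only.

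Htr3a, the cation channel subunit carried by a class of interneurons, was low in replicate 5. It lies at chr9:48899213-48911099 and had 5.38, 5.18, 5.63, 4.65, 2.72, 5.27 and 3.91 FPKM, from 219 to 459 reads. Replicate 5 was 0.70 times the next lowest library, which was replicate 7. Interneuron markers had a mean log2(FPKM + 1) of 5.21 in replicate 5 and 4.91 to 5.04 elsewhere, with 5 of 10 highest and 2 of 10 lowest in replicate 5. Their summed FPKM was 632 in replicate 5 and 634 to 683 elsewhere. The part of interneuron and striatal markers in the low Htr3a value was not tested. Cck, the most abundant of the interneuron markers, had 168 FPKM in replicate 5 and 260.2 to 302 elsewhere. Sst, an interneuron peptide, had 154 FPKM in replicate 5 and 146 to 171 elsewhere. The closest profiles were Aqp11 (0.09), an aquaporin, Trpc4 (0.10), a cation channel, and Vwa3b (0.10).

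Of the Gs receptors, Htr4 varied least, with a 1.31-fold range, against 1.49-fold for Htr6 and 1.54-fold for Htr7. Htr4 ranged from 1.32 to 1.74 FPKM (791 to 1046 reads) and Htr6, at chr4:139061108-139075570, from 1.08 to 1.61 FPKM (155 to 229 reads). Htr6 was lowest in replicates 3 (1.08 FPKM) and 7 (1.24), with 1.31 to 1.61 elsewhere. Htr7, at chr19:35958734-36057507, had 1.79, 1.80, 2.21, 1.84, 1.99, 1.80 and 2.75 FPKM, from 268 to 418 reads. Replicate 7 was the highest and replicate 3 the next, and the other 5 libraries lay within 1.79 to 1.99 FPKM. Replicates 7 and 3 were also the highest in thalamus markers, at 3.11 and 3.01 against 1.29 to 2.51 elsewhere, and in choroid plexus markers, at 2.52 and 2.19 against 0.75 to 1.42, as mean log2(FPKM + 1). Ependyma markers were likewise highest there, at 2.19 in replicate 7 and 2.44 in replicate 3 against 1.48 to 1.99, with 8 of 8 having their 2 highest values in these libraries. As all 3 marker lists peaked in replicates 3 and 7, their parts cannot be told apart.

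**Figure D5:**
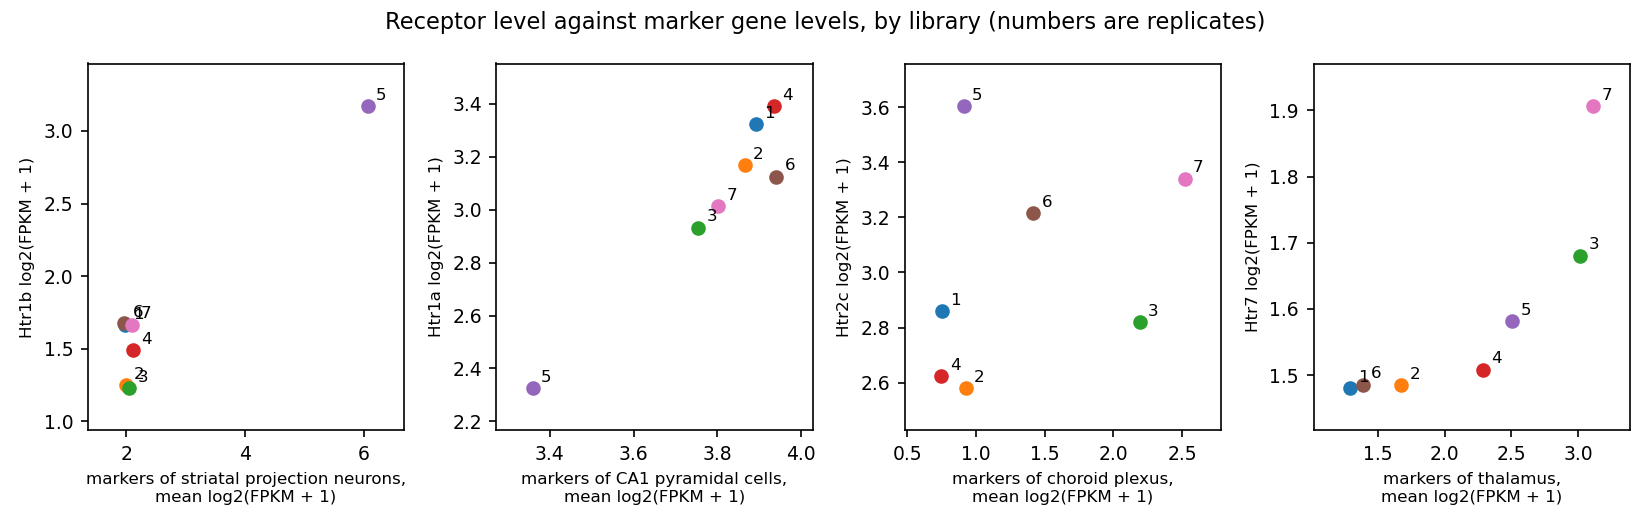
Level of 4 receptor genes against mean marker level in each library, both as log2(FPKM + 1), with numbers for replicates. Htr1b is high only in replicate 5, where striatal markers reach 6.07, Htr2c in replicate 5 is high with low choroid plexus markers, and Htr7 is highest in replicates 7 and 3, the highest for thalamus markers.

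No receptor passed a test against either of these tissues. For each gene a slope on the mean level of choroid plexus markers was fitted over the 7 libraries with limma, with Benjamini-Hochberg adjustment over 16151 genes. It called 0 of 10 receptors and 0.0124% of all genes, namely Enpp2 and Steap1, which were named after their values were seen. At an unadjusted p under 0.05 there were 2 of 10 receptors, beside 4.64% of genes: Htr7 with a slope of 0.19 ± 0.06 (SE; adjusted p = 0.915 by limma) and Htr6 with -0.14 ± 0.05 (adjusted p = 0.999 by limma). Htr2c had a slope of 0.15 ± 0.18 (adjusted p = 0.999 by limma). The slopes are log2 units of receptor per log2 unit of marker level. These unadjusted counts changed with single libraries. Without replicate 5 the unadjusted count was 4 of 10, beside 9.77% of genes, as Htr1a and Htr2c joined, and with striatal markers as a covariate it was also 4 of 10, beside 9.37%. Without replicate 1, 3 or 7 it was 1 of 10, beside 3.93%, 4.19% and 2.36% of genes in turn. With replicate 6 left out it was 3 of 10, beside 4.25% of genes. The slope of Htr2c was 0.27 without replicate 5 (adjusted p = 0.488 by limma) and 0.02 without replicate 7. That of Htr1a was -0.08 with all libraries, -0.21 without replicate 5 (adjusted p = 0.287 by limma) and 0.003 without replicate 4.

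The same fit on thalamus markers called 0 of 10 receptors and 0.149% of 16154 genes. At an unadjusted p under 0.05 there was 1 of 10, beside 3.62% of genes, which was Htr7 with 0.18 ± 0.06 (adjusted p = 0.9999 by limma). Without replicate 7 the count was 0 of 10, beside 2.996% of genes, and the slope of Htr7 was 0.11. Without replicate 3 or 6 the count was 2 of 10, beside 3.08% and 4.12% of genes in turn. Limma without its intensity trend also called 0 receptors for either tissue. These fits do not show that receptor levels were unrelated to either tissue. Striatal markers set a single library apart, so no slope was fitted on them.

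Around the receptors, transcripts of genes that make, store and take up serotonin stayed under 1 FPKM, except Ddc. Those of the monoamine oxidases, which also break down other monoamines, were higher. Protein was not measured. The rate-limiting enzyme gene of serotonin neurons, Tph2, had 0.37 to 0.65 FPKM, and Tph1 had 0.02 to 0.07. The serotonin transporter gene Slc6a4 was listed at 0 in 5 libraries, with a highest value of 0.04 FPKM. Slc18a2, which loads vesicles, had 0.39 to 0.64, Ddc, the decarboxylase, 2.20 to 3.16, and Gch1, which makes the cofactor of Tph2, 0.57 to 0.86. The monoamine oxidase genes Maoa (7.87 to 10.5 FPKM) and Maob (9.39 to 12.7) were the highest of this group, and both were highest in replicate 5.

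Of 4 further receptor genes, Htr1d stood out in replicate 5. It had 1.22 FPKM there, from 371 reads, and at most 0.03 FPKM, from 8 reads, in any other library, and was at 0 in replicate 4. Htr1f, a Gi/o receptor gene, ranged from 0.34 to 0.55 FPKM, Htr2b from 0.0 to 0.014 and Htr3b from 0.0 to 0.044. Replicate 5 for Htr1d was 46.8 times the next highest library. Its median was under the minimum of 0.1 FPKM, so it entered neither fit as reported. With no filter on low values it was not called, with an adjusted p by limma of 0.997 for choroid plexus and 0.9997 for thalamus markers.

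Downstream of the receptors, 3 signalling genes lay at least 1.5-fold above all other libraries in replicate 5, as did 1.81% of all genes. They were 1 of 9 G protein subunits, 1 of 8 adenylyl cyclases and 1 of 15 effectors and adaptors. A further signalling gene was called with thalamus markers. Gnal, the G protein subunit that couples receptors to cyclase in striatum, had 74.9 FPKM in replicate 5 and 17.3 to 21.9 elsewhere. Adcy5, the main striatal adenylyl cyclase, had 98.2 and 13.6 to 16.1, and Rgs4, which ends Gi/o and Gq signals, 272 and 52.8 to 87.3. Adcy1, the most abundant cyclase, was lowest there, at 48.2 and 67.5 to 97.4 elsewhere, and Gnas, the Gs subunit, likewise, at 117 and 145 to 159. Prkcb, the most abundant effector listed, was highest there, at 112 FPKM, with 72.6 to 94.8 elsewhere. Of 39 genes in the wider serotonin list that entered the fits, 0 were called with choroid plexus markers, beside 0.0124% of all genes. With thalamus markers 1 was called, beside 0.149% of all genes. This was Plcb4, a phospholipase C that Gq activates, with a slope of 0.64 ± 0.08 (adjusted p = 0.0358 by limma) and 1.49, 1.70, 4.04, 2.55, 3.60, 2.06 and 5.29 FPKM in replicates 1 to 7. Leaving out replicate 1, 2, 3, 4, 6 or 7 ended the call (adjusted p by limma from 0.0560 to 0.331), as did no filter on low values (0.156).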

How the data were processed

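RNA was prepared with SMARTer chemistry (stated in the labels' protocols) and mapped to mm10, per the submitters' processing notes. The authors deposited 1 table of FPKM with 7 columns, matched to samples by library name. Aligner, counter, annotation and filters: not given in the sources used here. The members, gene lists and tests were chosen with earlier results of these data known.

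Low values rise in steps of 1 read, from which relative depths were read. The depth at which the lengths of 97 genes came out nearest to whole numbers was then searched for. The search covered only depths around the median implied by GENCODE exon lengths, so the scale of depths and lengths rests on GENCODE. The mean distance from whole was 0.011 at the chosen depth and 0.187 at best elsewhere among the depths searched. Reads came out whole in all 7 libraries, within 0.02, for 154 of 160 listed genes. Errors from reads cover counting only, since PCR copies were not separated. GENCODE M21 gave positions and exon lengths.

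Tests used log2(FPKM + 1), which understates changes of low genes, for the 16166 genes whose median reached 0.1 FPKM, all 10 members among them. Limma with an intensity trend fitted each gene on the mean level of a marker list, leaving out the genes of that list; calls had an adjusted p under 0.05. On simulated data for 16151 genes this recovered 100% of 100 genes at a slope of 0.5 and of 100 at a slope of 1. There were 8 false calls. Those genes varied independently, no library stood apart, and their noise was set to the typical SD of genes of their level. Both slopes exceeded those given for the receptors, so recovery at slopes of that size was not examined. Similar profiles were sought among 1787 genes whose median reached 1 FPKM and whose range was 1.5-fold or more, for the 5 members with such a range. Besides the members, named genes were the serotonin metabolism and further receptor genes, the most abundant and most variable gene of each signalling class, the 2 most abundant genes of a marker list and the 3 most similar profiles; others were chosen after their values were seen. Alternatives were another pseudocount (0.1), filters, scalings, a striatal covariate, limma without the trend, a score without Ttr, 2-fold in place of 1.5-fold, and each library left out. Python 3.11.15, R 4.3.3 and limma 3.58.1 were used.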

Additional observations from a re-analysis of the deposited data

Results flagged for a closer look

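Among 39 named genes and marker scores, 11 had 1 library set apart from the other 6, its gap to the nearest, as a share of the range, exceeding Dixon's 95% critical value. Chance does this in about 5% of normal groups, and 1619 of 16166 genes did so here. Gnal, Adcy5 and Rgs4 were named as the most variable gene of their class, so their part of the count follows from that choice. Of the receptors only Htr1b did, with 8.02 FPKM in replicate 5, while Htr7 in replicate 7 had a gap of 0.567 of its range, just under that value. In replicate 5, Htr1d (1.22 FPKM), Gnal (74.9), Adcy5 (98.2) and Rgs4 (272) were likewise set apart as highest, and Gnas (117) as lowest. Ddc was set apart as lowest in replicate 1, at 2.20 FPKM. As mean log2(FPKM + 1), markers of striatal projection neurons (6.07), interneurons (5.21) and habenula (0.87) were set apart as highest in replicate 5. Those of CA1 pyramidal cells (3.36) were set apart as lowest there. Habenula markers were not high as a set: 3 of 6 were highest and 1 of 6 was lowest in replicate 5. Only 3 of 6 reached the minimum median FPKM used for the tests. Tac2 had 6.99 FPKM in replicate 5 and 1.59 to 2.98 elsewhere, while Nwd2 had 1.27 and 2.15 to 2.57.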

How the results depend on the processing

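The count of receptors called was 0 for choroid plexus and for thalamus markers under each of the alternatives run. The number of all genes called with choroid plexus markers, 2 with the values as reported, was 1 for genes whose median reached 1 FPKM, 0 with a pseudocount of 0.1, with no filter, after rescaling to a sum of 1000000 and without the trend, 15 with striatal markers as a covariate, and 0 to 10 with 1 library left out (10 without replicate 5, 0 without replicate 1, 3, 4 or 7). For thalamus markers, 24 as reported, it was 11 with no filter and at a median of 1 FPKM, 41 with the covariate and 5 to 43 with 1 library left out, 43 being without replicate 5, 5 without replicate 1 or 3, 6 without replicate 6, 8 without replicate 7 and 10 without replicate 2. The count of 2 receptors beyond the other libraries was 1 at 2-fold and 3 with a pseudocount of 0.1 or after rescaling to a sum of 1000000. It was 0 to 3 with 1 library left out, 0 being without replicate 5. Shares of all genes are not given for these settings, so these counts have no background. Of the 10 receptor places, 6 to 10 were kept with 1 library left out, 6 being without replicate 1 or replicate 5, but 1 with GENCODE exon lengths and 2 by reads alone; these last alternatives were added after seeing the data. The cause of the other changes was not tested. The slopes of Htr2c, Htr6 and Htr7 kept their direction but not their size. For choroid plexus markers, the Htr2c slope of 0.15 ranged from 0.02 without replicate 7 to 0.28 without replicate 3, and was 0.27 without replicate 5 and 0.26 with the striatal covariate; the Htr7 slope of 0.19 was 0.11 without replicate 7. No paired analysis was possible because all samples stand in 1 group. Counting error was at most 8.91% for a receptor, at the lowest library of Htr5b.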
